A study of Mus musculus with 12 samples.

Results

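The proliferative hub, the ring of dividing epidermis behind the edge of a healing wound, was compared with unwounded control skin 7 days after wounding (D7). The comparison was chosen by sample title and took 4 of the 12 arrays of the series, 2 of hub basal cells and 2 of control basal cells, across 17097 genes. Tail skin of CD1 mice had received a punch wound of 3 mm. Hub cells came from a punch of 6 mm around the wound and control cells from skin far from it. A punch of 4 mm enriched for the leading edge (LE), which lies next to the wound and was arrayed at the same times. All 3 regions were also taken at D4. The study describes both punches as enriching for their region, so a sample may hold cells of the neighbouring one. It reports the LE as widest at D4 and narrower later. Tissue of 5 mice was pooled per sample, and 300 living basal cells were sorted by α6-integrin and the lack of CD34. The methods aim this gate at the interfollicular epidermis, but state that the α6-integrin stain marks basal cells of the infundibulum too. After amplification, cDNA of the sorted cells was measured on Affymetrix strip arrays of the mouse genome. Both arrays of a group are labelled as biological replicates, whereas the methods do not say whether these were separate pools, so the p values measure the spread between arrays, which may be technical.

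Basal keratinocytes sit on the basement membrane and renew the epidermis. After wounding, cells close to the gap migrate, cells behind them divide, and keratinocytes switch on the stress keratins 6 and 16 and small proline-rich proteins, which build the cornified envelope. Cytokines of the interleukin 20 and interleukin 36 families and ligands of the EGF receptor act between keratinocytes and immune cells in this response.

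Values are log2 intensities normalized by the authors with RMA. A gene was called higher or lower where limma gave an adjusted p under 0.05 (Benjamini-Hochberg over 17097 genes) in a fit that held all 12 arrays in 6 groups. Array medians were 4.25 to 4.28 at D7 and 5.4 to 5.47 at D4, so the days were compared only through the hub-control difference within a day. The hub arrays correlated with r = 0.9933 across probe sets and the control arrays with r = 0.9918, with probe sets not being independent replicates. The sorted cells carried the basal markers Krt5 (11.96 to 12.08 on the 4 arrays), Krt14 (11.69 to 11.7) and Itga6 (10.11 to 10.31), and Cd34 lay near the floor at 3.08 to 3.28. The suprabasal keratins Krt1 (11.11 to 11.42) and Krt10 (11.21 to 11.24) were also bright, so their RNA was present in all 4 samples. Of 18 lists of cell type markers, 0 members were called by limma. With the D7 arrays alone Dcn (adjusted p = 0.00189) and the infundibulum gene Plet1 (10.01 and 10.12 against 10.71 and 10.92, adjusted p = 0.0382) passed. The summed level of the 6 fibroblast markers was 6.43 to 6.45 in the hub and 7.23 to 7.33 in control, a gap carried by Dcn (4.61 and 4.66 against 6.45 and 6.60, adjusted p = 0.195 with all 12 arrays), while Col1a1, Col1a2, Col3a1, Pdgfra and Lum lay below the median of all genes on all 4 arrays. Control replicate 1 held more RNA of the antigen presentation genes H2-Ab1 (7.78 against 3.59 in replicate 2) and Cd74 (5.87 against 4.30), while the Langerhans cell gene Cd207 lay at 3.34 to 3.48 on the 4 arrays. Sums of other lists were also lower in the hub without overlap. Among them were infundibulum and isthmus (11.17 to 11.3 against 11.59 to 11.72), bulge (8.76 to 9.23 against 9.35 to 9.65) and T cell (8.47 to 8.6 against 8.7 to 8.94). The T cell sum was carried by Thy1 (8.28 and 8.43 against 8.81 and 8.54), while the other 4 members lay below the median of all genes on all 4 arrays. The sum of the sorted cell type itself, basal keratinocyte, was lower too (14.02 to 14.03 against 14.12 to 14.14). So were those of Langerhans, mast, Schwann and Merkel cells. With 2 arrays a group, sums can part without overlap by chance. Only the suprabasal sum was higher without overlap (12.42 to 12.45 against 12.31 to 12.35). The part of these cell types in the results was not tested. In sorted populations, a change in the share of a cell type and a change of RNA per cell cannot be told apart.

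Hub basal cells at D7 differed from control basal cells more by rises than by falls. limma called 101 genes higher in the hub, which is 0.591% of all genes tested, and 29 lower, which is 0.17%. At an unadjusted p under 0.05 the numbers were 1415 and 749. Of the rises 49 were over 2-fold and 17 over 4-fold, and of the falls 18 and 2. The median difference was 0.98 on the log2 scale among the rises and −1.12 among the falls, against 0.02 over all genes. By the fold rule of the study's methods, over 2-fold in each same-numbered pair of arrays, 56 genes were higher (0.328% of all genes) and 31 lower (0.181%), of which 38 and 12 were also called. The number of calls leaned on single arrays. Without hub replicate 2, limma called 7 genes higher and 0 lower, without hub replicate 1, 25 and 6, without control replicate 1, 23 and 1, and without control replicate 2, 16 and 5. Without either LE array of D7, which enters the shared spread, 47 and 15 were called. Krt6b, Sprr2d, Gjb2, Rbp2, Cald1, Nipal4 and Slc9a3r1 remained called whichever of the 12 arrays was left out, and Car2, Fscn1, Basp1 and Wee1 were called in 11 of the 12 fits.

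**Figure D1:**
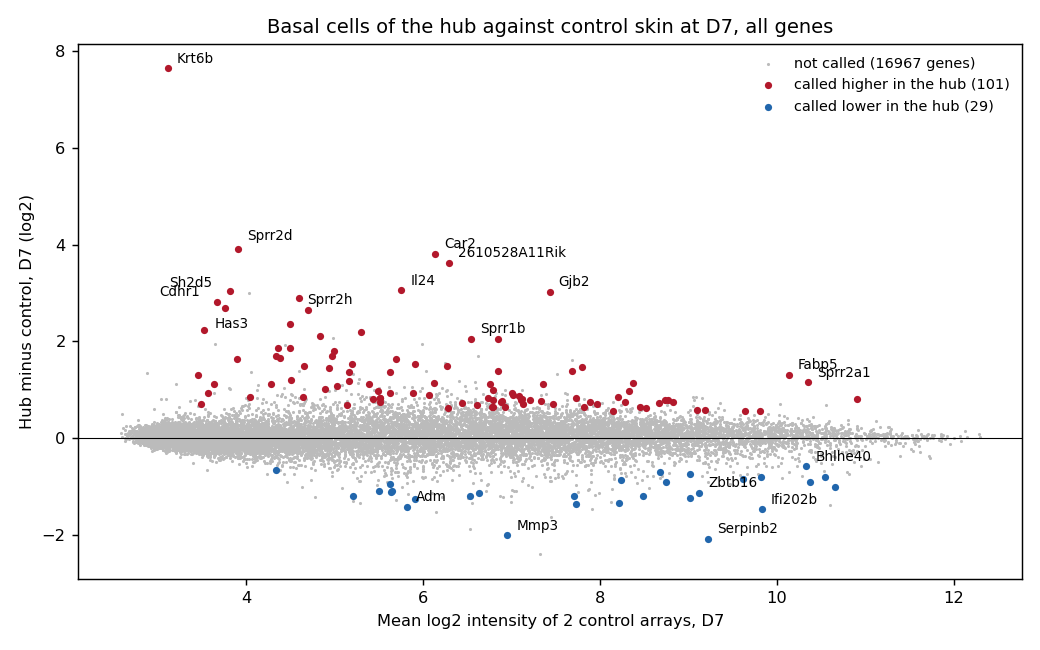
Each point is a gene, with its mean log2 intensity on the 2 control arrays of D7 on the x axis and the hub-control difference (log2) on the y axis. The 101 genes called higher are red, the 29 called lower are blue, and Krt6b stands apart at 7.65 with a control mean of 3.11.

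Stress keratins and small proline-rich proteins included the leading rises Krt6b and Sprr2d and, with Sprr2h, 3 of the 12 largest. Of 14 measured members of this list 6 were called higher and 0 lower, with a median difference of 0.65. Krt6b, a stress keratin, read 10.75 and 10.77 in the hub and 3.04 and 3.17 in control, a difference of 7.65 (SE 0.58, limma adjusted p = 0.000659) that was the largest of all genes. The control values lay close to the lowest value on the arrays, 2.46. Its near-identical neighbour Krt6a was bright in both regions, at 11.68 and 11.71 in the hub and 10.84 and 10.96 in control, and rose by 0.80 (SE 0.12, adjusted p = 0.0219). Sprr2d, a cornified envelope precursor, read 7.80 and 7.85 against 4.12 and 3.70, a rise of 3.91 (SE 0.16, adjusted p = 7.76e-06) with the lowest p of all genes. Its relatives Sprr2h (7.66 and 7.30 against 4.59 and 4.59), Sprr1b (8.75 and 8.43 against 6.03 and 7.06) and Sprr2a1 (11.54 and 11.46 against 10.26 and 10.44) rose by 2.89, 2.05 and 1.15. Sprr2a1 started from a bright control level, whereas Sprr2d and Sprr2h lay below the median of all genes in control. Krt16, the keratin that pairs with keratin 6, read 11.27 and 11.21 against 10.47 and 10.64 and missed the threshold with an adjusted p of 0.051. Sprr1a (0.12, adjusted p = 0.954) did not pass. Members of these families share sequence, so a probe set may read more than 1 of them.

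The bases upstream of the annotated starts of 3 of these genes, and of Mmp3, which fell, are shown. The genes are small proline-rich genes that rose and a large fall whose entries hold TGANTCA, and they were picked after their values were seen. With N as any base, this pattern covers the letters bound by AP-1, the FOS and JUN factors of the wound response, but is broader than them. The sequences are from RefSeq on GRCm38.p6, and capitals mark TGANTCA, searched on both strands. Those of Sprr2d, Sprr2h and Mmp3 end at the base before the start, and that of Sprr1b leaves out the last 38 bases before the start used, which lie inside its annotated span. They are Sprr2d at chr3:92338940-92339139 (plus strand), Sprr2h at chr3:92385485-92385684 (plus strand), Sprr1b at chr3:92438818-92438979 (minus strand) and Mmp3 at chr9:7445622-7445821 (plus strand).
Sprr2d: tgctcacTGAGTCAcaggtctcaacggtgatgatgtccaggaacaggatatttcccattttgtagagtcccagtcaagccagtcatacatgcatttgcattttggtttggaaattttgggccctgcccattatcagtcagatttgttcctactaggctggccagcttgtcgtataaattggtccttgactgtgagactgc
Sprr2h: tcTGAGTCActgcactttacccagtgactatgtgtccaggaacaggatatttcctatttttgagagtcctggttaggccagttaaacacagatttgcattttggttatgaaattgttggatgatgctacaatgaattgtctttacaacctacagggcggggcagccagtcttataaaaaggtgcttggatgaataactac
Sprr1b: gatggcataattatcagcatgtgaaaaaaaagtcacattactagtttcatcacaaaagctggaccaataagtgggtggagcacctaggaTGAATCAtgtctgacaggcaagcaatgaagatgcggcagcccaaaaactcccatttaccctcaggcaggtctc
Mmp3: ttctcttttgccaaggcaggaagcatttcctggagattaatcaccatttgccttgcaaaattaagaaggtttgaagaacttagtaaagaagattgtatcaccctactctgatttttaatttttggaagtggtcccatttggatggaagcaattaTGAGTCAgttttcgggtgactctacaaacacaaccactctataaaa
The match began 193 bases before the start in Sprr2d, 198 in Sprr2h and 46 in Mmp3. In Sprr1b it began 111 bases before the start used, which is 73 bases from the end of the sequence shown. Over the 250 bases upstream of each start, 8 of 90 windows of genes called higher held TGANTCA (8.89%), as did 4 of 36 windows of genes called lower (11.1%), 5.73% of the windows of all genes tested and 6.75% of all windows in the table. The TATA box letters TATAAA stood in 14.4% of the windows of called rises, 16.7% of those of called falls and 9.01% of those of all genes tested. The E-box CACGTG stood in 13.3%, 8.33% and 7.38%, and TGACNNNGC, the core of the antioxidant response element, which can overlap TGANTCA, in 5.56%, 16.7% and 11.4%. Of the called genes 76 of 101 and 24 of 29 had an entry. A match is a description of letters and not a site of binding.

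Large rises outside that list included Car2, Gjb2 and Has3. Car2, a cytosolic carbonic anhydrase, read 9.85 and 10.03 in the hub and 6.46 and 5.80 in control, a rise of 3.81 (SE 0.36, adjusted p = 0.00237), and was the only called gene among 11 carbonic anhydrases. Gjb2, the gap junction protein connexin 26, read 10.43 and 10.50 against 7.88 and 6.99, a rise of 3.03 (SE 0.27, adjusted p = 0.00172). With the desmosomal cadherins Dsc2 (7.29 and 7.72 against 5.39 and 5.22, a rise of 2.20) and Dsg1b (6.16 and 6.32 against 5.27 and 5.59, a rise of 0.81), 3 of 18 measured desmosome and gap junction genes were called higher and 0 lower. The Dsg1b call was lost in each of the 12 fits that left out an array. Has3, a hyaluronan synthase, read 6.55 and 6.36 against 3.62 and 3.91, a rise of 2.69 (SE 0.29, adjusted p = 0.0057). The other synthase Has2 read 6.13 and 5.20 against 7.08 and 6.64 and did not pass (−1.20, adjusted p = 0.245). Podoplanin (Pdpn), a mucin-like protein of the cell surface, was the second of 14 hyaluronan, CD44 and podoplanin genes to be called, at 7.30 and 7.57 against 5.89 and 5.92.

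Among 21 cytokine genes 3 were called higher and 0 lower. Il24, a member of the interleukin 20 family, read 8.64 and 8.96 in the hub and 5.11 and 6.38 in control, a rise of 3.06 (SE 0.50, adjusted p = 0.0313). Il1f9, which encodes interleukin 36γ, rose by 0.98 from an already bright 8.36 and 8.30, and Il18 by 0.92 from 3.65 and 3.49, below the median of all genes. 2610528A11Rik, which encodes the ligand of the receptor GPR15, read 9.81 and 10.04 against 7.01 and 5.58 and rose by 3.63 (SE 0.48, adjusted p = 0.012). Ereg, the EGF receptor ligand epiregulin, was the only one of 12 EGF family genes called, at 4.47 and 5.02 against 3.79 and 3.11 (adjusted p = 0.0487). Tgfa read 7.17 and 6.96 against 6.33 and 6.39 and did not pass (adjusted p = 0.392). Of 27 chemokine genes 0 were called by limma, and the unadjusted p was under 0.05 for 5, all lower. Ccl1 was called lower outside that list, at 4.19 and 3.83 against 5.51 and 4.91.

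The alarmins S100a8 and S100a9, which neutrophils and wound keratinocytes make, were high in both hub arrays without passing the test. S100a8 read 7.01 and 7.06 in the hub and 4.55 and 3.51 in control (3.01, adjusted p = 0.129), and S100a9 7.08 and 7.01 against 5.33 and 4.63 (2.07, adjusted p = 0.367). In limma with the 6 arrays of D7 alone their adjusted p values were 0.00799 and 0.00959, and with a replicate block 0.0174 and 0.0237. All 4 neutrophil markers lay below the median of all genes on all 4 arrays. In the list of antimicrobial proteins and alarmins limma called 0 of 24, and an unadjusted p under 0.05 was found for 3 higher and 1 lower.

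Other large rises fell outside the lists. Sh2d5, an adaptor with an SH2 domain, read 6.92 and 6.80 against 3.67 and 3.98 (3.04, SE 0.56, adjusted p = 0.0451). Cdhr1, a cadherin-related protein, read 6.34 and 6.65 against 3.64 and 3.70 (2.82, SE 0.41, adjusted p = 0.0183), and Smim3, a small membrane protein, 7.04 and 7.65 against 4.80 and 4.60 (2.65, SE 0.30, adjusted p = 0.00618). Rbp2, a cellular retinol-binding protein, read 6.70 and 6.97 against 4.55 and 4.43 (2.35, SE 0.16, adjusted p = 0.000344). Their control means lay below the median of all genes, 4.91, as did those of 25 of the 101 rises. Slc9a3r1, a scaffold that ties membrane proteins to ezrin, read 6.67 and 6.66 against 5.04 and 4.90 (1.70, SE 0.11, adjusted p = 0.000198).

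**Figure D2:**
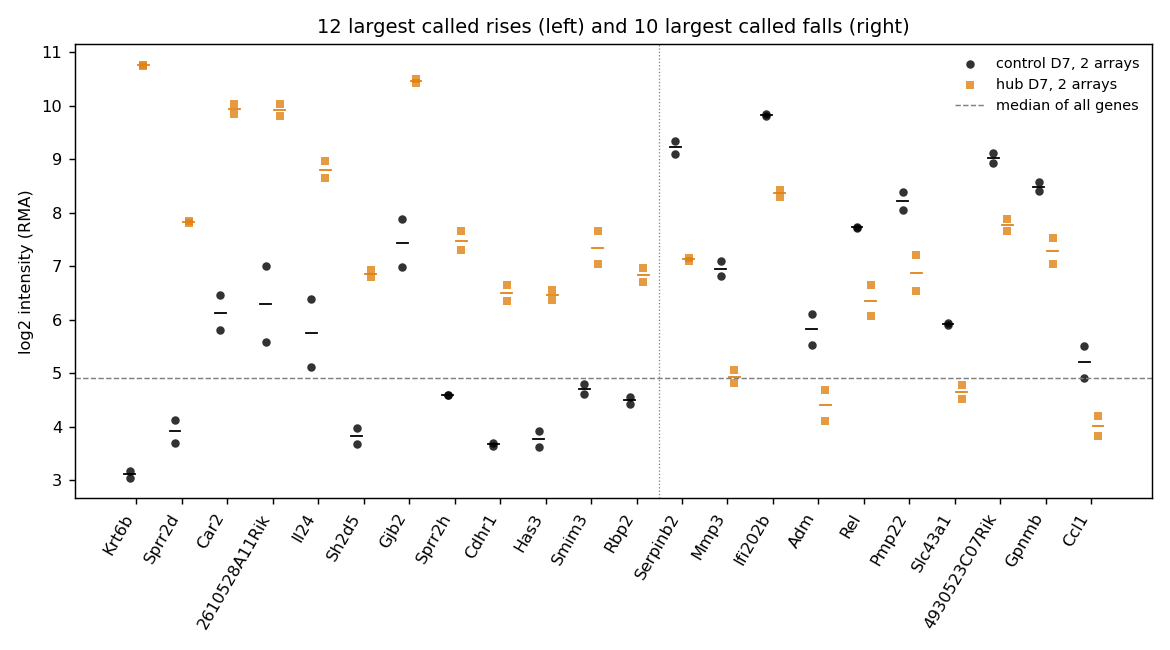
log2 intensity (RMA) on each of the 2 control (black circles) and 2 hub (orange squares) arrays of D7 for the 12 largest called rises and the 10 largest called falls, with short bars at group means and a dashed line at the median of all genes, 4.91. Krt6b shows the widest gap, and the control arrays of 2610528A11Rik (7.01 and 5.58) and Il24 (5.11 and 6.38) are spread widest.

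Some actin-binding proteins rose. Of 48 actin, myosin and membrane linker genes 4 were called higher and 0 lower, with a median of 0.10. Cald1, which encodes caldesmon, a protein that binds actin and myosin, read 6.62 and 7.25 against 4.95 and 4.70 (2.11, SE 0.19, adjusted p = 0.00226). Fscn1, the actin bundler fascin, read 8.99 and 8.80 against 7.16 and 6.53 (2.05, SE 0.22, adjusted p = 0.00539), and the formin Fmnl2 5.60 and 5.81 against 4.34 and 4.68. Basp1, a membrane protein of the cell cortex, read 5.52 and 5.57 against 4.06 and 3.75 (1.64, SE 0.17, adjusted p = 0.00437). Actn1 (0.67, adjusted p = 0.161) and Tpm2 (0.57, adjusted p = 0.0951) did not pass.

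Lipid and redox metabolism contributed further rises. Of 19 cholesterol synthesis genes 2 were called higher and 0 lower, with a median of 0.38 and 9 higher at an unadjusted p under 0.05. These were the sterol carrier Stard4 (6.59 and 6.44 against 5.39 and 4.93) and the sterol isomerase Ebp (8.87 and 9.18 against 8.38 and 8.18), whose call was lost in each of the 12 fits that left out an array. The squalene epoxidase Sqle read 7.54 and 7.72 against 6.50 and 6.70 and did not pass (adjusted p = 0.146). In lipid handling, Fabp5, a fatty acid-binding protein of keratinocytes, rose by 1.31 from 9.84 and 10.43 to 11.58 and 11.32. Nipal4 and Cyp4f39, both needed for the acylceramides of the skin barrier, rose by 1.70 and 1.65, and the fatty acid transporter Slc27a3 by 0.99. A group of 8 such called genes, put together after their values were seen, rose by 0.75 to 1.70. Of 27 NRF2 targets and antioxidant genes 2 were called higher, the aldo-keto reductase Akr1b8 (7.06 and 7.60 against 5.69 and 5.70) and the heme oxygenase Hmox1 (6.64 and 6.36 against 5.25 and 5.52), and the unadjusted p was under 0.05 for 11 higher and 1 lower. Gsta4 read 7.90 and 7.72 against 6.91 and 6.93 and did not pass (adjusted p = 0.0589). In glycolysis and hypoxia 28 genes were measured, and the lactate exporter Slc16a3 was called higher (6.97 and 6.97 against 5.59 and 5.64) while Adm, the peptide adrenomedullin, was called lower. Ass1, which makes the precursor of arginine, rose by 1.46 from 8.03 and 7.56 to 9.18 and 9.34.

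Genes of growth lay slightly above control. All 24 ribosome biogenesis genes lay above 0 with a median of 0.30, of which 0 were called by limma and 9 were higher at an unadjusted p under 0.05. Noc4l (0.76, adjusted p = 0.0847) and Heatr1 (0.64, adjusted p = 0.0867), both needed for the small ribosomal subunit, came nearest. Of 31 proteasome genes 30 lay above 0 (median 0.22, 0 called, 12 higher at an unadjusted p under 0.05), and all 31 respiratory chain genes did (median 0.21, 0 called, 9 higher). These medians stand beside 0.02 over all genes. Outside the lists, small called rises included the mitochondrial ribosome and translation genes Mrpl34, Gfm1, Mrpl57 and Mrpl18 (0.61 to 1.12) and the ribosome assembly, RNA polymerase and tRNA genes Pno1, Rpp40, Imp4, Polr3e and Gars (0.57 to 0.98), grouped after their values were seen. The other probe sets of Gfm1, Mrpl57, Imp4 and Polr3e lay at 0.12, 0.14, 0.22 and −0.02. Those of Mrpl34 and Rpp40 lay at 0.88 and 1.01, and none of these was called.

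Cell cycle genes had few calls, and those of DNA replication lay slightly above control. Of 34 DNA replication and G1/S genes 1 was called higher, Rrm2, the small subunit of ribonucleotide reductase, at 9.65 and 9.38 in the hub and 8.83 and 8.63 in control (0.78, SE 0.14, adjusted p = 0.0457). The list had a median of 0.28 with 31 genes above 0, and the unadjusted p was under 0.05 for 12 higher and 1 lower. Gins1, Mcm3 and Rpa2, parts of the replication machinery, lay at 0.68, 0.66 and 0.56 with adjusted p of 0.246, 0.213 and 0.129. Of 32 G2/M and mitosis genes 0 were called by limma and 1, Ndc80 (0.65), was higher at an unadjusted p under 0.05. Their median was 0.12 at D7 and 0.95 in the hub at D4. Ccna2, a cyclin of S phase and mitosis, read 9.65 and 9.48 in the hub and 9.90 and 9.22 in control, so its groups overlapped. Wee1, the kinase that holds cells back from mitosis, was called lower, at 7.78 and 7.89 against 8.78 and 8.72 (−0.92, SE 0.10, adjusted p = 0.00539).

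Differentiation and Notch genes showed few calls. Of 47 genes of suprabasal differentiation and the cornified envelope 0 were called by limma, with a median of 0.03 and an unadjusted p under 0.05 for 2, both higher. The transglutaminase Tgm1 read 6.70 and 6.97 against 5.61 and 5.95 (adjusted p = 0.131). In the Notch pathway 2 of 17 genes were called higher, the receptor Notch3 (0.78) and the Notch target Nrarp (0.63), and Lfng, which modifies Notch receptors, was lower without passing (−0.68, adjusted p = 0.079).

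**Figure D3:**
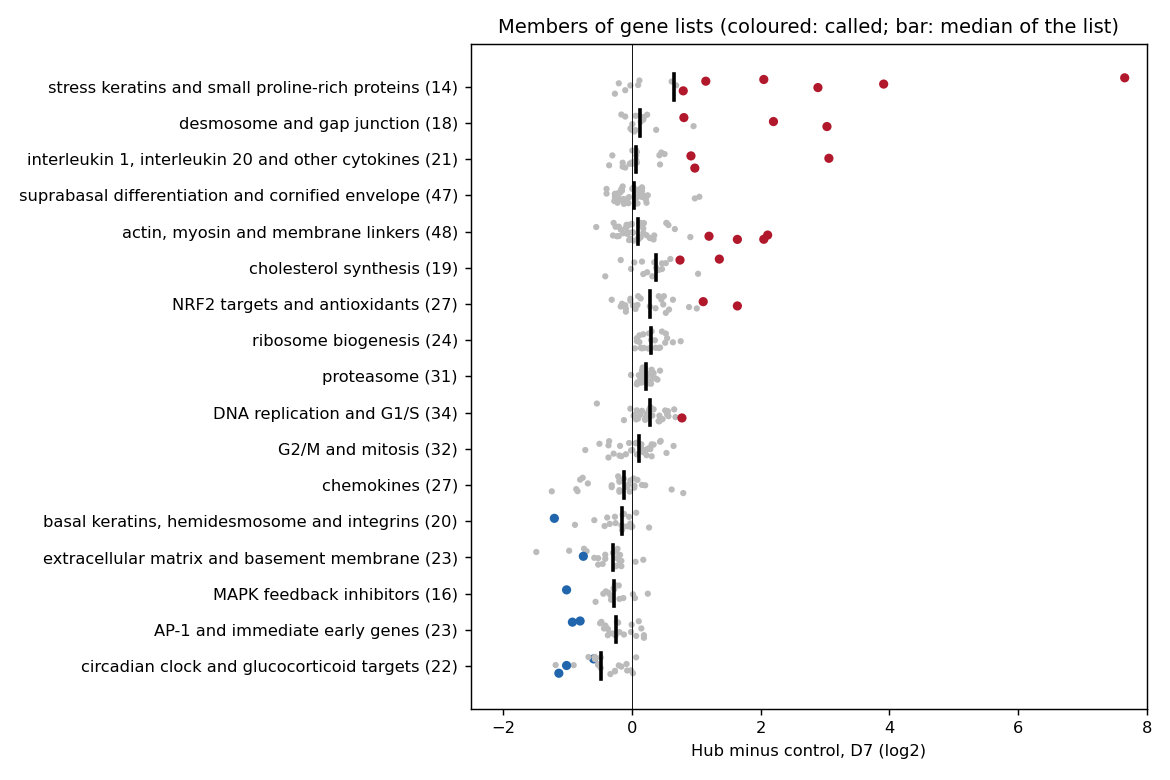
Hub-control difference at D7 (log2, x axis) of the measured members of 17 gene lists, with the number measured in brackets, called genes in red (higher) or blue (lower), uncalled genes in grey and black bars at list medians. The median is 0.65 for stress keratins and small proline-rich proteins and −0.48 for circadian clock and glucocorticoid targets.

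The falls included regulators of transcription and of signalling. Of 22 circadian clock and glucocorticoid target genes 3 were called lower and 0 higher, with a median of −0.48 and 10 lower at an unadjusted p under 0.05. Zbtb16, a transcription factor induced by glucocorticoids, read 8.09 and 7.89 in the hub and 9.07 and 9.17 in control (−1.13, SE 0.21, adjusted p = 0.0491). Errfi1, which restrains the EGF receptor, read 9.53 and 9.77 against 10.59 and 10.71 (−1.01), and Bhlhe40, a repressor of the clock, 9.71 and 9.78 against 10.38 and 10.29 (−0.59). Cry2 (−1.18, adjusted p = 0.0805) and Per3 (−0.67, adjusted p = 0.0762) did not pass. Errfi1 was also the only called gene among 16 MAPK feedback inhibitors, of which 5 lower and 0 higher had an unadjusted p under 0.05. Of 23 AP-1 and immediate early genes 2 were called lower, Fosl1 (9.38 and 9.52 against 10.36 and 10.38) and Nr4a1 (9.02 and 9.03 against 9.82 and 9.82), and 11 were lower at an unadjusted p under 0.05. Fosb (−0.41, adjusted p = 0.131) and Klf6 (−0.43, adjusted p = 0.184) were bright in both regions and did not pass.

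Serpinb2, the inhibitor of urokinase known as PAI-2, fell most. It read 7.09 and 7.16 in the hub and 9.34 and 9.10 in control (−2.09, SE 0.31, adjusted p = 0.0194). In the same list of 24 protease inhibitors the stefin Csta1, which blocks cathepsins, was called higher (7.54 and 7.97 against 6.21 and 6.33), and so was the protease cathepsin C (Ctsc, 8.07 and 8.38 against 7.02 and 6.69) outside it. Mmp3, the matrix protease stromelysin 1, read 4.81 and 5.06 against 6.81 and 7.10 (−2.01, SE 0.26, adjusted p = 0.0109), and was the only called gene among 29 extracellular proteases and plasminogen system genes. Fibroblasts also make Mmp3, and the fibroblast marker Dcn was lower on the same hub arrays, while the other 5 fibroblast markers lay near the floor in both groups, as given above. Nephronectin (Npnt), a matrix protein, read 8.16 and 8.38 against 9.09 and 8.95 (−0.75), the only call among 23 matrix and basement membrane genes, of which 8 lower and 0 higher had an unadjusted p under 0.05. Itgb6, the epithelial integrin subunit that activates TGF-β, read 6.53 and 6.48 against 7.78 and 7.62 (−1.20, adjusted p = 0.0324), the only call among 20 basal keratin, hemidesmosome and integrin genes.

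The remaining large falls had varied roles. Of 26 measured genes of interferon response and antigen presentation limma called 0, and the unadjusted p was under 0.05 for 2 higher and 2 lower. Ifi202b, an interferon-inducible gene, read 8.29 and 8.43 against 9.81 and 9.85 (−1.47, SE 0.25, adjusted p = 0.0368), and Rel, an NF-κB subunit, 6.64 and 6.07 against 7.71 and 7.74 (−1.37, SE 0.19, adjusted p = 0.0143). Tlr2, a receptor of innate immunity, Traf5, a signalling adaptor, and the chemokine Ccl1 also fell, by 0.95, 1.09 and 1.20 on the log2 scale. Adm read 4.69 and 4.11 against 5.53 and 6.11 (−1.42). Irs1, which relays insulin signals, read 5.47 and 5.19 against 6.64 and 6.43 (−1.20, SE 0.16, adjusted p = 0.0111), and Slc43a1, an amino acid transporter, 4.77 and 4.52 against 5.93 and 5.90 (−1.27). Pmp22, a membrane protein first known from myelin, read 7.20 and 6.53 against 8.38 and 8.05 (−1.35). Gpnmb, a membrane glycoprotein, read 7.52 and 7.04 against 8.57 and 8.41 (−1.21), and 4930523C07Rik 7.89 and 7.66 against 9.12 and 8.93 (−1.25).

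For 55 of the 130 called genes the table held other probe sets, 85 in all. Of these 76 had the sign of the probe set used, 16 of them called, and 0 were called the other way. Aside from Krt6b, the genes that the study names for its wound signature included 7 called rises, among them Il24, Sprr2h, Dsc2, Fscn1 and Sprr1b. In total 8 of 14 measured genes of this list were called higher and 0 lower (median 2.05), and since the study chose them on these samples the count is not independent evidence. The study used its 2-fold rule in place of limma. By that rule 8 of the 14 were also higher, but not the same 8. Krt6a (0.85 and 0.75 on the log2 scale in the 2 pairs) and Ereg (0.69 and 1.92) missed it. Emb (0.19), Il33 (−0.14), Epgn (−0.04) and Ccna2 (0.01) did not pass, with adjusted p of 0.515, 0.872, 0.96 and 0.993. The study names them among genes raised in both wound regions at both days.

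The LE at D7 shared its control arrays with the hub, so values are given side by side. The test between LE and hub also uses the hub arrays on which the 130 genes were selected. Its calls among them are thus not independent of that selection. Between LE and hub limma called 227 of all genes higher in the LE (1.33%) and 239 lower (1.4%). Among the 101 hub rises 33 were called above the hub in the LE and 0 below it, and among the 29 falls 12 were called lower in the LE and 2 higher. The other 83 of the 130 genes were not called between the regions. The median LE-control difference was 1.39 for the rises and −1.7 for the falls. Basp1 differed most among the rises, at 4.06 and 3.75 in control, 5.52 and 5.57 in the hub and 8.55 and 8.31 at the LE (LE minus hub 2.89, SE 0.17, adjusted p = 0.000206). Fxyd5, which regulates the sodium pump and adhesion, read 6.31 and 5.96 in the hub and 8.13 and 8.16 at the LE (2.01, adjusted p = 0.00432). Ereg (6.58 and 6.67 in the LE), Sprr2h (9.22 and 9.51) and Pdpn (9.68 and 8.86) were above the hub by 1.88, 1.88 and 1.84. Krt6b (11.37 and 10.85 in the LE, adjusted p = 0.856 against the hub), Fabp5 (adjusted p = 0.947) and Sprr2a1 (adjusted p = 0.645) did not pass between LE and hub.

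Mmp3 and Mast4 ran the other way. Mmp3 read 7.39 and 6.52 in the LE, level with control (0.00) and above the hub by 2.02 (SE 0.26, adjusted p = 0.00505). Mast4, a microtubule-associated kinase, read 4.44 and 4.59 in the hub against 5.66 and 5.68 at the LE and 5.64 and 5.63 in control (LE minus hub 1.15, adjusted p = 0.00879), though its 3 other probe sets lay at 0.07 to 0.12 between hub and control. Dcn read 3.79 and 4.07 at the LE, below the hub without passing (−0.7, limma adjusted p = 0.644), and a link to Mmp3 was not tested. Among the falls Zbtb16 dropped furthest, to 5.75 and 5.71 in the LE (LE minus hub −2.26, adjusted p = 0.00154), followed by Npnt (6.97 and 6.93), Gpnmb (6.01 and 6.00), Irs1 (4.27 and 4.04), Slc43a1 (3.53 and 3.42) and 3300002A11Rik (3.54 and 3.37). Of the 130 genes 4 did not pass between LE and control at D7, Mmp3, Itgb6, Mast4 and the rise Slc27a3. Over all 17097 genes 1581 were called higher and 918 lower in that contrast. Its control arrays had also served to select the 130 genes, so their share is not independent of the selection.

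**Figure D4:**
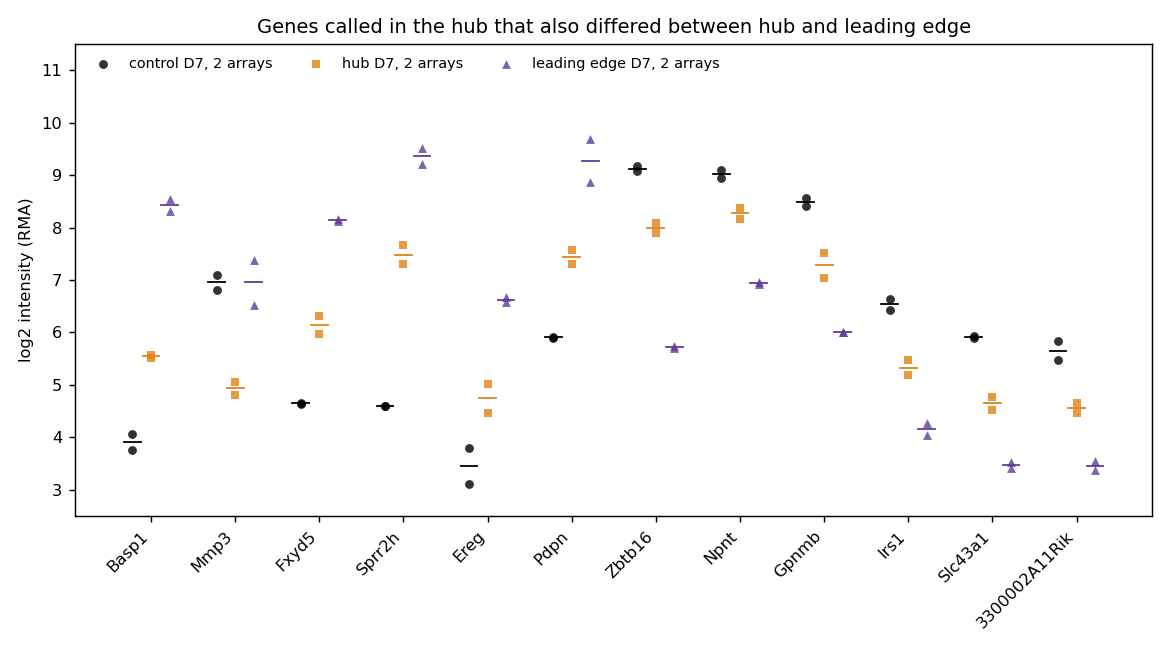
log2 intensity (RMA) on the 2 control, 2 hub and 2 LE arrays of D7 for up to 6 genes in each direction, called between hub and control, with the largest called difference between LE and hub, and short bars at group means. In 11 of the 12 genes the hub mean lies between control and LE, and in Mmp3 the hub lies below both.

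The D4 arrays are separate samples of the same regions. Genes were selected here on their D7 difference. The D4 arrays entered that selection through the shared spread and through the choice of a gene's probe set, made by the mean over all 12 arrays. Over all 17097 genes limma called 38 higher and 18 lower in the D4 hub than in D4 control. Of the 101 genes called higher at D7, 97 were above control in the D4 hub too, where 51.5% of all genes were, and 20 were called there. Of the 29 called lower, 27 were below control at D4, where 48.5% of all genes were, and 5 were called. The median hub-control difference of these genes at D4 was 0.66 and −0.59. Cald1 read 7.22 and 7.26 in the D4 hub and 5.06 and 5.16 in D4 control, a rise of 2.13 beside 2.11 at D7. Sprr2h rose by 2.69 at D4 (9.64 and 8.87 against 7.06 and 6.06) and Gjb2 by 2.18 (11.39 and 11.41 against 9.54 and 8.91). Krt6b read 11.89 and 11.87 in the D4 hub and 11.17 and 8.69 in D4 control, so the low control level of D7 was not seen at D4 and its D4 difference of 1.95 did not pass (adjusted p = 0.215). Aldh1l2, a mitochondrial folate enzyme, read 7.24 and 7.19 against 6.95 and 7.17 at D4 (0.16) and 5.99 and 6.48 against 4.11 and 4.61 at D7 (1.87). Mmp3 read 8.19 and 8.33 against 8.72 and 8.30 at D4 (−0.26, adjusted p = 0.889).

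In limma's test of the change in the hub-control difference from D4 to D7, 0 genes were called (0% of all genes), and the unadjusted p was under 0.05 for 425 higher and 355 lower. Sprr2d had the lowest adjusted p, 0.195, for a change of 1.85 (SE 0.23), and Krt6b had 0.384 for a change of 5.70 (SE 0.82). Of the 130 called genes 63 had an unadjusted p under 0.05 in this test. They were selected on the D7 difference that enters it, which favours such values, so the count is not independent evidence. Leaving out either D4 control array made Krt6b the only gene called, and a trended and robust prior made it Sprr2d. A difference between the days was thus shown for 0 genes with all 12 arrays and the default prior, which does not show that the days were alike.

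**Figure D5:**
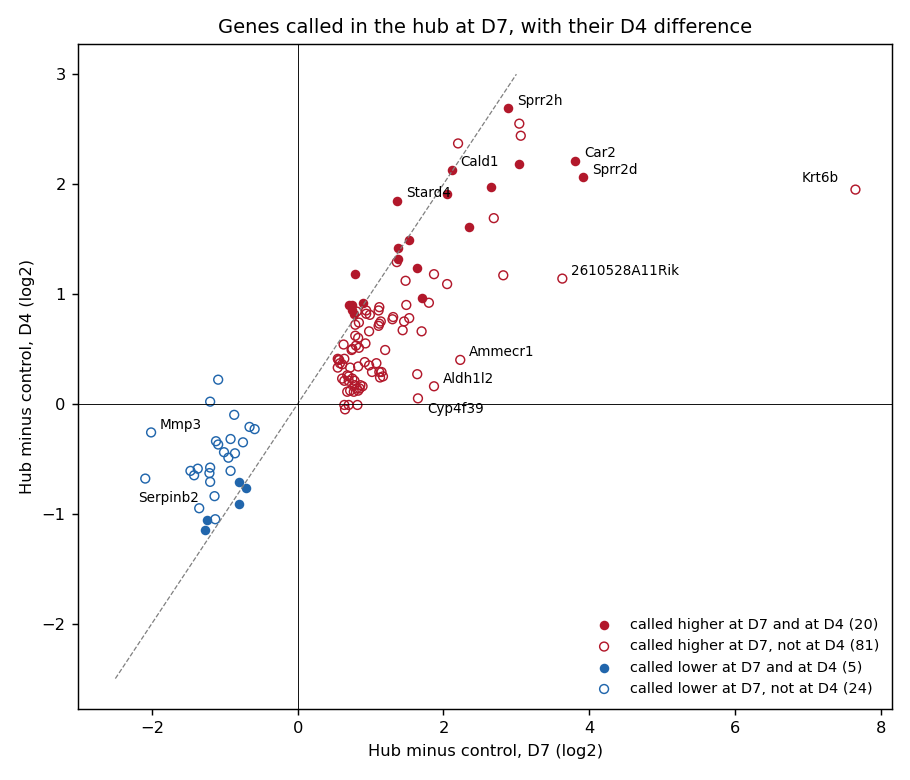
Hub-control difference (log2) at D7 (x axis) and D4 (y axis) of the 130 genes called at D7, with filled points also called at D4 (20 higher, 5 lower) and the dashed line marking equal differences. Sprr2h (2.89 and 2.69) and Cald1 (2.11 and 2.13) lie near the line, and Krt6b (7.65 and 1.95) lies far below it.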

How the data were processed

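Basal cells of the leading edge, proliferative hub and control skin at D4 and D7 were measured on 12 arrays, 2 for each of 6 groups taken from the sample titles. Per the labels, the authors normalized the arrays by RMA, which corrects background, equalizes the arrays by quantiles and summarizes the probes of a set, and deposited log2 intensities. Its software version and a genome build are not given in the sources used here. No raw array files were used.

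Among 45141 probe sets, 28898 had 1 gene in the annotation and entered the main test. The others had several genes (551) or none (15588) or were controls (104). Of the 28898, 28689 were matched to RefSeq by gene identifier. Where a gene had several, as 7180 of 17097 did, the brightest one on average over 12 arrays stood for it. The 6 groups were modelled with limma 3.58.1 (R 4.3.3), on 6 residual degrees of freedom and 3.77 prior degrees of freedom, with Benjamini-Hochberg adjustment and a threshold of 0.05. Every SE and adjusted p is from this moderated test unless another setting is named. The number of arrays limits the precision. The procedure was tested on simulated data.

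The comparison, the gene lists and the marker lists were chosen with earlier results of these data known. Genes were named from the called genes: the 12 largest rises and 10 largest falls, up to 4 called members a list, genes the study names, the sort antigens, and called genes that differed most from the LE. List members that were not called were given as values. The LE-hub and D4 contrasts came from the same fit. Alternatives tried were each array left out in turn, a replicate block, D7 or the 4 arrays alone, a test against at least 1.5-fold, 2 other scalings, probe sets averaged per gene, dim genes removed, weighted arrays, a robust trended prior and variants of the fold rule. Areg, Ccnb1 and Krt17 have no entry in the probe annotation used and were not analysed here.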

Additional observations from a re-analysis of the deposited data

Results flagged for a closer look

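Among genes called in the hub at D7, the test of the difference between LE and hub picked out 12. On the log2 scale the LE lay above the hub by 2.89 for Basp1, 2.02 for Mmp3, 2.01 for Fxyd5, 1.88 for Sprr2h, 1.88 for Ereg and 1.84 for Pdpn. The LE-hub difference was −2.26 for Zbtb16, −1.32 for Npnt, −1.28 for Gpnmb, −1.18 for Irs1, −1.17 for Slc43a1 and −1.11 for 3300002A11Rik. Mmp3 was the only one of these whose LE level equalled control.

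Probe sets paired with no gene were outside the main test. A separate limma fit over 15588 of them called 46 between hub and control at D7 (0.295%). These were 24 higher (0.154%) and 22 lower (0.141%) in the hub, against 0.591% and 0.17% of the named genes.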

How the results depend on the processing

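All 130 called genes kept their direction in the alternatives run. With quantile normalization of the 12 arrays 68 of the 130 stayed called, with D7 arrays alone 95, with the 4 arrays of hub and control 65 and with array weights 130. Against at least 1.5-fold 12 remained. Counts of calls moved by over 1.5 times as follows. Rises, 101 in the report, numbered 45 after quantile normalization, 12 against at least 1.5-fold, and 7 to 122 when 1 array was left out. Falls, 29 in the report, numbered 60 with a trended and robust prior, 51 with D7 arrays alone, 0 against at least 1.5-fold, and 0 to 44 when 1 array was left out. Changes between D4 and D7 numbered 1 with the trended and robust prior and 0 to 1 when 1 array was left out. Differences between LE and hub at D7 numbered 725 with D7 arrays alone, 19 against at least 1.5-fold and 71 to 526 when 1 array was left out. The fold rule gave 111 to 168 higher and 80 to 85 lower genes with 1 pair of arrays, and 54 lower by group means and 17 by every hub array against every control array. Same-numbered arrays of a day deviated together at D4 (r of 0.17 to 0.245 across genes over the 3 pairs of groups) but not at D7 (0.002 to 0.067), so they were not treated as pairs. With a replicate block within the day, 88 genes were higher and 32 lower, and 83 of the 130 stayed called. The cause of these shifts was not tested, apart from the fewer folds to meet with 1 pair.

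Signs turned in 5 uncalled genes. With 1 array left out, Il33 ranged from −0.45 to 0.18 and Epgn from −0.18 to 0.10 (0.18 and 0.10 without hub replicate 1 of D7). Ccna2 ranged from −0.33 to 0.35, Itga6 from −0.01 to 0.14 and Cd34 from −0.05 to 0.15, each lowest without control replicate 2 of D7. Ccna2 also lay at −0.02 with array medians at 0 and −0.05 after quantile normalization.

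With 2 arrays a group, leaving out 1 leaves a lone sample that is assumed to vary like the other groups. Dim probe sets limit what can be seen of genes near the floor.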
